A study of Mus musculus with 8 samples.

Results

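The lysosome and cathepsin genes are a list of 41 named genes of the acid compartment in which cells digest protein, sugar chains and lipid. They were followed in blood progenitors of mice with an internal tandem duplication in the receptor gene Flt3 (FLT3-ITD) and of wild type mice. Members were matched by gene symbol to array probe sets (groups of short probes for one transcript) that the platform annotation gives to exactly 1 gene. That found 40 of the 41 among 18193 genes with such a probe set, and Cd63 was not analysed here. The brightest probe set on average stood for its gene, which entered the test where 4 or more of the 8 arrays showed it above their median. By that rule 39 members were among the 10762 genes tested. Lgmn, which encodes the asparaginyl endopeptidase legumain, was dim on all arrays (3.69 to 4.51, log2) and was not tested.

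The cells were multipotent progenitors sorted from bone marrow of C57BL6 females aged 8 to 10 weeks, by the absence of lineage markers and CD150 and the presence of Sca-1, c-Kit and CD48. Wild type and FLT3-ITD had 4 samples each, with 1 array per sample, and the genotype is the only label in which they differ. In each genotype the samples are called replicates 1, 2, 3 and 037 here. The last is also numbered 1 in its label, with 037 in brackets, and may repeat replicate 1. Over all probe sets, replicates 1 and 037 correlated at 0.969 in wild type and at 0.953 in FLT3-ITD. The latter was the lowest correlation of FLT3-ITD replicate 037 with any other array. Whether 037 repeats replicate 1 was not tested. The labels name neither the Flt3 allele copies nor the mice behind a sample, so the p-values rest on a spread between samples that could be technical alone. Of the gate genes, Kit and Cd48 lay above the median on all 8 arrays and Slamf1, which encodes CD150, below it on all 8, while Ly6a (Sca-1) was not analysed here. The progenitor and blood cell genes Cd34 and Ptprc also lay above the median on all 8.

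As background, lysosomal hydrolases are made in the endoplasmic reticulum, tagged with mannose 6-phosphate, and work at the low pH that a proton pump maintains. Cathepsins are the proteases of this compartment. In antigen-presenting cells the same enzymes cut proteins into peptides for MHC class II and trim the invariant chain. The transcription factor TFEB is known to raise many lysosomal genes together by binding an E-box near their start sites, so the promoters of the members are shown first.

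Promoter sequences were taken from RefSeq (GRCm38.p6), as the 250 bases before each annotated start site. They covered 36 of the 41 members in 42 windows, since some genes have several starts. The E-box CACGTG, a palindrome, was found in 12 of the 42 windows (28.6%), against 6.02% of all 32851 windows of that length. Its longer form TCACGTG, which contains the E-box and was searched on both strands, was found in 26.2% and 3.13%. The STAT site TTCNNNGAA was found in 4.76% of member windows and 7.02% of all. The PU.1 core GAGGAA, searched on both strands, was found in 28.6% and 23.3%. A match is a description of the letters and not a bound site. The windows below are given 5′ to 3′ on the gene's strand, with every E-box in capitals. Lamp1 and Ctsd are shown because they hold several E-boxes, Ifi30 because it is the one with a match among the 5 genes past the test that have a window, and Naaa and Plbd1 because they had the largest differences and hold none.
Lamp1, chr8:13158911-13159160, plus strand: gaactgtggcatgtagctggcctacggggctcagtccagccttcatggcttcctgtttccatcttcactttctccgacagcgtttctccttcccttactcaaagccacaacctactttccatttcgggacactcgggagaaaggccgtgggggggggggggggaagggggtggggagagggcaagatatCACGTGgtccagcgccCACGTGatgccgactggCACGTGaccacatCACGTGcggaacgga
Ctsd, chr7:142387828-142388077, minus strand: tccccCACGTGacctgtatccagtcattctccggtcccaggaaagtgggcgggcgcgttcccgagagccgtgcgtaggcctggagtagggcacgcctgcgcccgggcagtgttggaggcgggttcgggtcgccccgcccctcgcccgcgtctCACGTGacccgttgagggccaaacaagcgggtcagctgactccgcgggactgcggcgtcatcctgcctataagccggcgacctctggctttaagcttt
Ifi30, chr8:70766664-70766913, minus strand: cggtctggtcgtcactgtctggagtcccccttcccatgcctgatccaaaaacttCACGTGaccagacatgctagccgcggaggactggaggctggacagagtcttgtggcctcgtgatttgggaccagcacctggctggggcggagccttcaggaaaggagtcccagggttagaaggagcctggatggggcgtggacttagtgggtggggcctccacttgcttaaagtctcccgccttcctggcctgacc
Naaa, chr5:92278182-92278431, minus strand: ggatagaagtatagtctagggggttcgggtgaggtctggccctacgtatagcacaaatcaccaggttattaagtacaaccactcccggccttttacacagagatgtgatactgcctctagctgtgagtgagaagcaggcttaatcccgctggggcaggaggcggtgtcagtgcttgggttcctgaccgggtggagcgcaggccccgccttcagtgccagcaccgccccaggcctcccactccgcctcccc
Plbd1, chr6:136661894-136662143, minus strand: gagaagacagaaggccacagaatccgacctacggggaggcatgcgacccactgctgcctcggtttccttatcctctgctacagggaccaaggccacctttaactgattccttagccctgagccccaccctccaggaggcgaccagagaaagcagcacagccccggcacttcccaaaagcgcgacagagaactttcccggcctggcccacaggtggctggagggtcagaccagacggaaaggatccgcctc

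The comparison asked how expression of these genes differed between FLT3-ITD and wild type progenitors. Enzymes and cofactors of lipid breakdown (Naaa, Plbd1, Psap), the aminopeptidase cathepsin H (Ctsh), the antigen-processing reductase gene Ifi30 and the cathepsin inhibitor cystatin C (Cst3) were higher in FLT3-ITD, by 1.25 to 3.39 on the log2 scale. No tested glycosidase, membrane protein or proton pump member passed the test. The median difference over the 39 tested members was 0.33, against 0.02 over all 10762 genes. Of the tested members 28 had a positive and 11 a negative difference, and over all genes 53.7% were positive. The list was drawn up with earlier results of these data known, so its median and signs describe it and test nothing. Over 71 tested genes that are not members, listed as lysosomal or as lysosome regulators and sorting factors, the median difference was 0.14.

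The test was limma (a linear model with moderated variances), two-sided, with p adjusted by Benjamini-Hochberg over the 10762 genes and a threshold of 0.05. With it 6 members were higher and 0 lower, where 0.427% of all tested genes were higher, 0.177% lower and 0.604% either. Of these 6, Naaa and Ctsh passed the filter through their FLT3-ITD arrays alone. With a filter above the median on all 8 arrays, which tests fewer genes, the members past the test were Psap, Ifi30 and Cst3. At an unadjusted p under 0.05, 16 members were higher and 0 lower, against 5.74% and 3.84% of all genes. In 14 members every FLT3-ITD value lay above every wild type value, and in 0 below; over all genes 3.77% and 2.44% did so, 6.22% in either direction. These counts take Ctse as higher, although its 2 probe sets go opposite ways; without Ctse they are 15 and 13. The members were listed with earlier results of these data known, so these counts describe the list and do not test it. Leaving out single samples left between 1 and 6 members past the test. Of wild type, the fit without replicate 1 left 3, without replicate 2 left 1, without replicate 3 left 2 and without replicate 037 left 3. Of FLT3-ITD, the fit without replicate 1 left 4, without replicate 2 left 2, without replicate 3 left 2 and without replicate 037 left 6. These counts are of all members past the test in each fit, and none of these fits kept all 6. Without wild type replicate 037 they include Ctse. Without FLT3-ITD replicate 037 they include Ctss and not Ifi30.

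**Figure D1:**
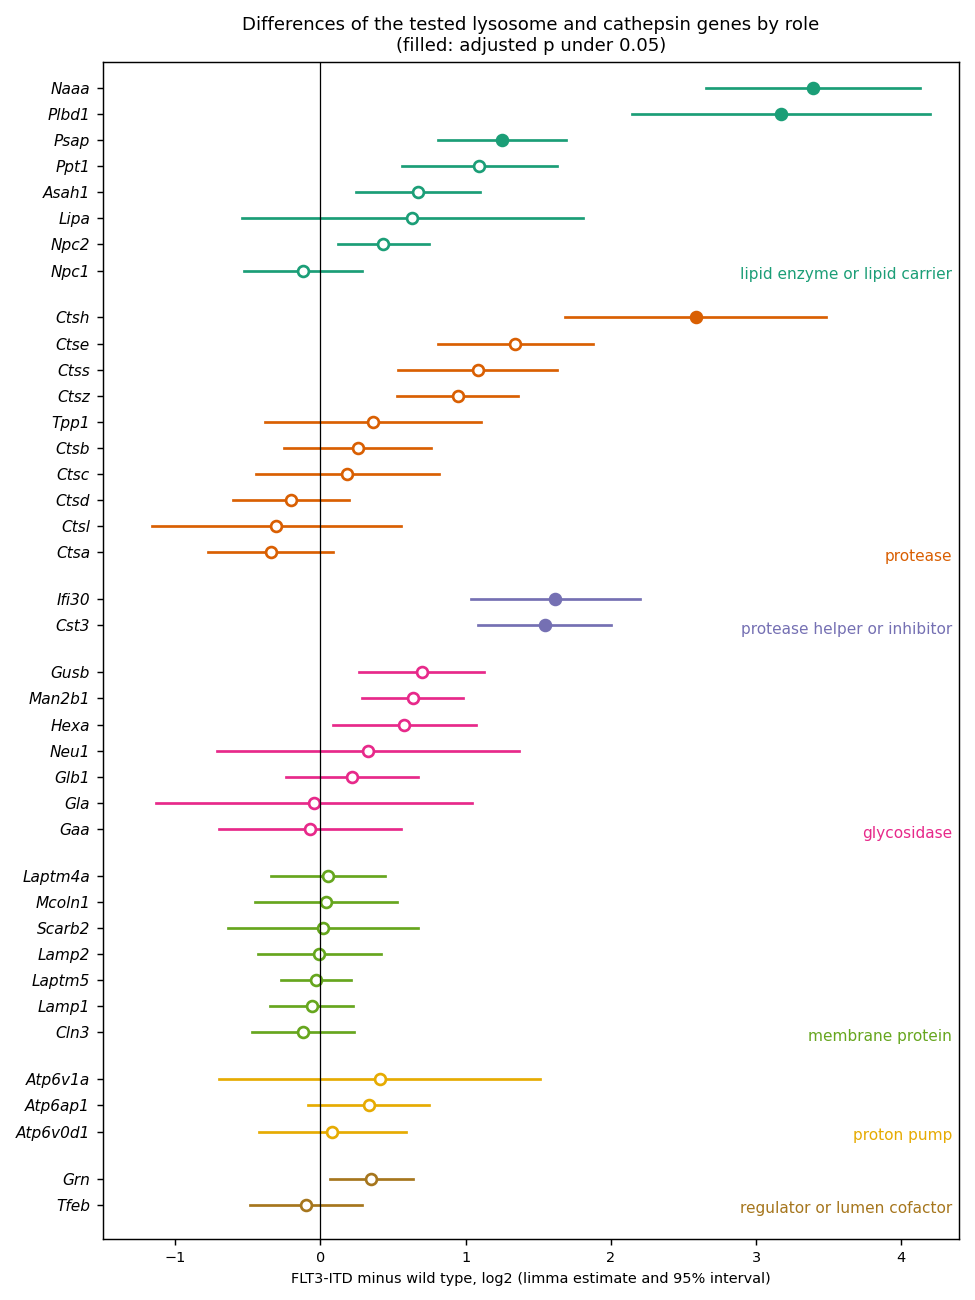
Difference between FLT3-ITD and wild type (x axis, log2) for the 39 tested lysosome and cathepsin genes (y axis), grouped by role, with limma's 95% intervals; filled circles passed the adjusted threshold of 0.05. The 6 filled circles lie between 1.25 and 3.39, and the 7 membrane proteins lie between −0.12 and 0.05.

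Among the lipid enzymes and lipid carriers, 3 of 8 tested members rose, where 0.427% of all tested genes did. Naaa encodes an amidase that breaks down N-acylethanolamines such as palmitoylethanolamide. It read 5.76, 5.12, 4.92 and 5.55 in wild type replicates 1, 2, 3 and 037, and 9.41, 9.10, 8.45 and 7.97 in the same order in FLT3-ITD. Every FLT3-ITD value was more than 2 log2 units above every wild type value, although the wild type values lay below the array medians of 5.98 to 6.05. The difference was 3.39 ± 0.33 (SE, n = 4 each; limma adjusted p = 0.00288), or 10.5-fold. Naaa passed the filter through its FLT3-ITD arrays alone. It was past the test on leaving out any of the 8 samples (limma adjusted p 0.00157 to 0.0171).

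Plbd1, which encodes a phospholipase B-like protein, read 5.85, 5.59, 7.04 and 6.47 in wild type and 10.29, 9.55, 9.58 and 8.23 in FLT3-ITD. The groups did not overlap, with FLT3-ITD replicate 037 lowest of its group. The difference was 3.17 ± 0.45 (limma adjusted p = 0.0212). The call held without wild type replicate 3 or without FLT3-ITD replicate 1 or 037. It was lost on leaving out wild type replicate 1 (0.0657), 2 (0.0700) or 037 (0.0619), or FLT3-ITD replicate 2 (0.0766) or 3 (0.0688), all limma adjusted p.

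Psap encodes prosaposin, the precursor of the saposins, which present sphingolipids to their hydrolases. It read 9.29, 9.41, 9.0 and 9.31 in wild type and 10.53, 10.93, 10.51 and 10.04 in FLT3-ITD, without overlap. The difference was 1.25 ± 0.19 (limma adjusted p = 0.0286). The call held without FLT3-ITD replicate 037 (0.0167), and was lost in the other 7 leave-one-out fits, where the limma adjusted p lay between 0.0634 and 0.123. Its second probe set was higher by 0.85 and overlapped between groups, with FLT3-ITD replicate 037 at 8.16 and the other FLT3-ITD samples at 9.60 to 9.77. For the mean of both probe sets the difference was 1.05 and the call was lost (limma adjusted p = 0.102).

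The other lipid members did not pass. Ppt1, which removes palmitate from proteins, read 9.29, 9.86, 9.72 and 9.27 against 11.11, 10.72, 10.62 and 10.08. The groups did not overlap, and the difference was 1.10 ± 0.24 (limma adjusted p = 0.121). All 5 of its probe sets were higher, by 0.69 to 1.59, and their mean passed the test (1.04; limma adjusted p = 0.00308). Asah1, acid ceramidase, read 8.87, 9.23, 9.36 and 9.58 against 9.59, 10.14, 10.09 and 9.89, a difference of 0.67 ± 0.19 (limma adjusted p = 0.254). Its groups touched without overlapping, wild type replicate 037 being highest of its group and FLT3-ITD replicate 1 lowest of its own.

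Npc2, a soluble carrier that hands cholesterol to the membrane protein NPC1, read 10.73, 10.92, 10.99 and 10.63 against 11.34, 11.43, 11.18 and 11.06. The groups did not overlap, and the difference was 0.43 ± 0.14 (limma adjusted p = 0.338). Npc1 itself differed by −0.12 ± 0.18, with a 95% interval of −0.52 to 0.28. Lipa, the acid lipase for cholesterol esters and triglycerides, was high in 1 FLT3-ITD sample: replicate 1 read 10.52, where replicates 2, 3 and 037 read 7.99, 8.64 and 7.87. Its wild type samples read 7.94 to 8.41, so the genotypes overlapped, and its difference of 0.63 had a 95% interval of −0.54 to 1.81.

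Among the proteases, 1 of 10 tested members rose and 0 fell, where 0.427% of all tested genes were higher and 0.177% lower. Ctsh read 5.08, 4.89, 5.48 and 5.12 in wild type and 8.80, 6.97, 8.13 and 6.99 in FLT3-ITD. The wild type values were dim and close together, and the FLT3-ITD values were spread out. The difference was 2.58 ± 0.40 (limma adjusted p = 0.0282), and Ctsh too passed the filter through its FLT3-ITD arrays alone. The call held without FLT3-ITD replicate 1, 2 or 037. It was lost without any wild type replicate, at 0.0845 (1), 0.109 (2), 0.0958 (3) and 0.0835 (037), and without FLT3-ITD replicate 3 (0.0815), all limma adjusted p. Its second probe set was higher by 1.88, without overlap, and was too dim to be tested.

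Cathepsin S (Ctss), a cysteine protease that trims the invariant chain, read 9.48, 9.23, 9.27 and 9.04 in wild type and 10.83, 10.60, 10.24 and 9.68 in FLT3-ITD. All FLT3-ITD values were above all wild type values, and the difference was 1.08 ± 0.24 (limma adjusted p = 0.133). Without FLT3-ITD replicate 037, the lowest of its group, it was 1.30 and passed (limma adjusted p = 0.0316). Cathepsin Z (Ctsz), a carboxypeptidase, read 9.89, 9.43, 10.01 and 9.61 against 10.60, 10.58, 10.47 and 11.07, again without overlap. Its difference was 0.94 ± 0.18 (limma adjusted p = 0.0811). Both other probe sets of Ctsz were higher without overlap, by 1.30 and 1.44, and the mean over the 3 passed (1.23; limma adjusted p = 0.0277).

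Cathepsin E (Ctse), an aspartic protease of endosomes, gave opposite answers from its 2 probe sets. The brighter one, of the type ending in _s_at, read 9.37, 9.0, 9.44 and 10.09 in wild type and 10.87, 11.13, 10.78 and 10.50 in FLT3-ITD. It was higher in every FLT3-ITD sample, by 1.34 ± 0.24 (limma adjusted p = 0.0513, just short of the call). Without wild type replicate 037, the highest of its group, this difference was 1.55 and passed (limma adjusted p = 0.0209). The other read 10.37, 10.81, 10.73 and 7.22 in wild type and 5.22, 5.60, 6.14 and 5.64 in FLT3-ITD. It was lower in every FLT3-ITD sample, by 4.13 ± 0.72 (limma adjusted p = 0.0591 over all probe sets), with wild type replicate 037 between the groups. The fall was thus seen in the probe set that a choice by largest variance would take, and there it passed (limma adjusted p = 0.0444). The mean of both differed by −1.39. No direction is given for Ctse. A probe set ending in _s_at can match several transcripts; where on the transcript each probe set lies was not analysed here.

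The remaining tested proteases did not pass, each with an unadjusted p above 0.05 and overlapping groups in the probe set used. Cathepsin D (Ctsd), the main aspartic protease of the lysosome, read 9.06, 8.99, 9.19 and 9.28 in wild type and 9.27, 9.12, 8.56 and 8.75 in FLT3-ITD, a difference of −0.20 with a 95% interval of −0.60 to 0.20. Cathepsin B (Ctsb) differed by 0.26 (−0.25 to 0.76) and cathepsin C (Ctsc), which activates granule serine proteases, by 0.18 (−0.44 to 0.81). Another Ctsb probe set was higher by 0.59 ± 0.23, with overlap (limma unadjusted p = 0.0293, adjusted p = 0.489 over all probe sets). The rest of its probe sets differed by −0.06, 0.20 and −0.0002. Ctsa, a serine carboxypeptidase that also shields Glb1 and Neu1 from breakdown, differed by −0.34 (−0.77 to 0.09), the lowest of the members. The intervals of Ctsl, cathepsin L, and Tpp1, a tripeptidyl peptidase, held 0 too. In the probe sets used, FLT3-ITD replicate 1 was lowest of its group for both Ctsb, at 9.08, and Ctsc, at 7.60.

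**Figure D2:**
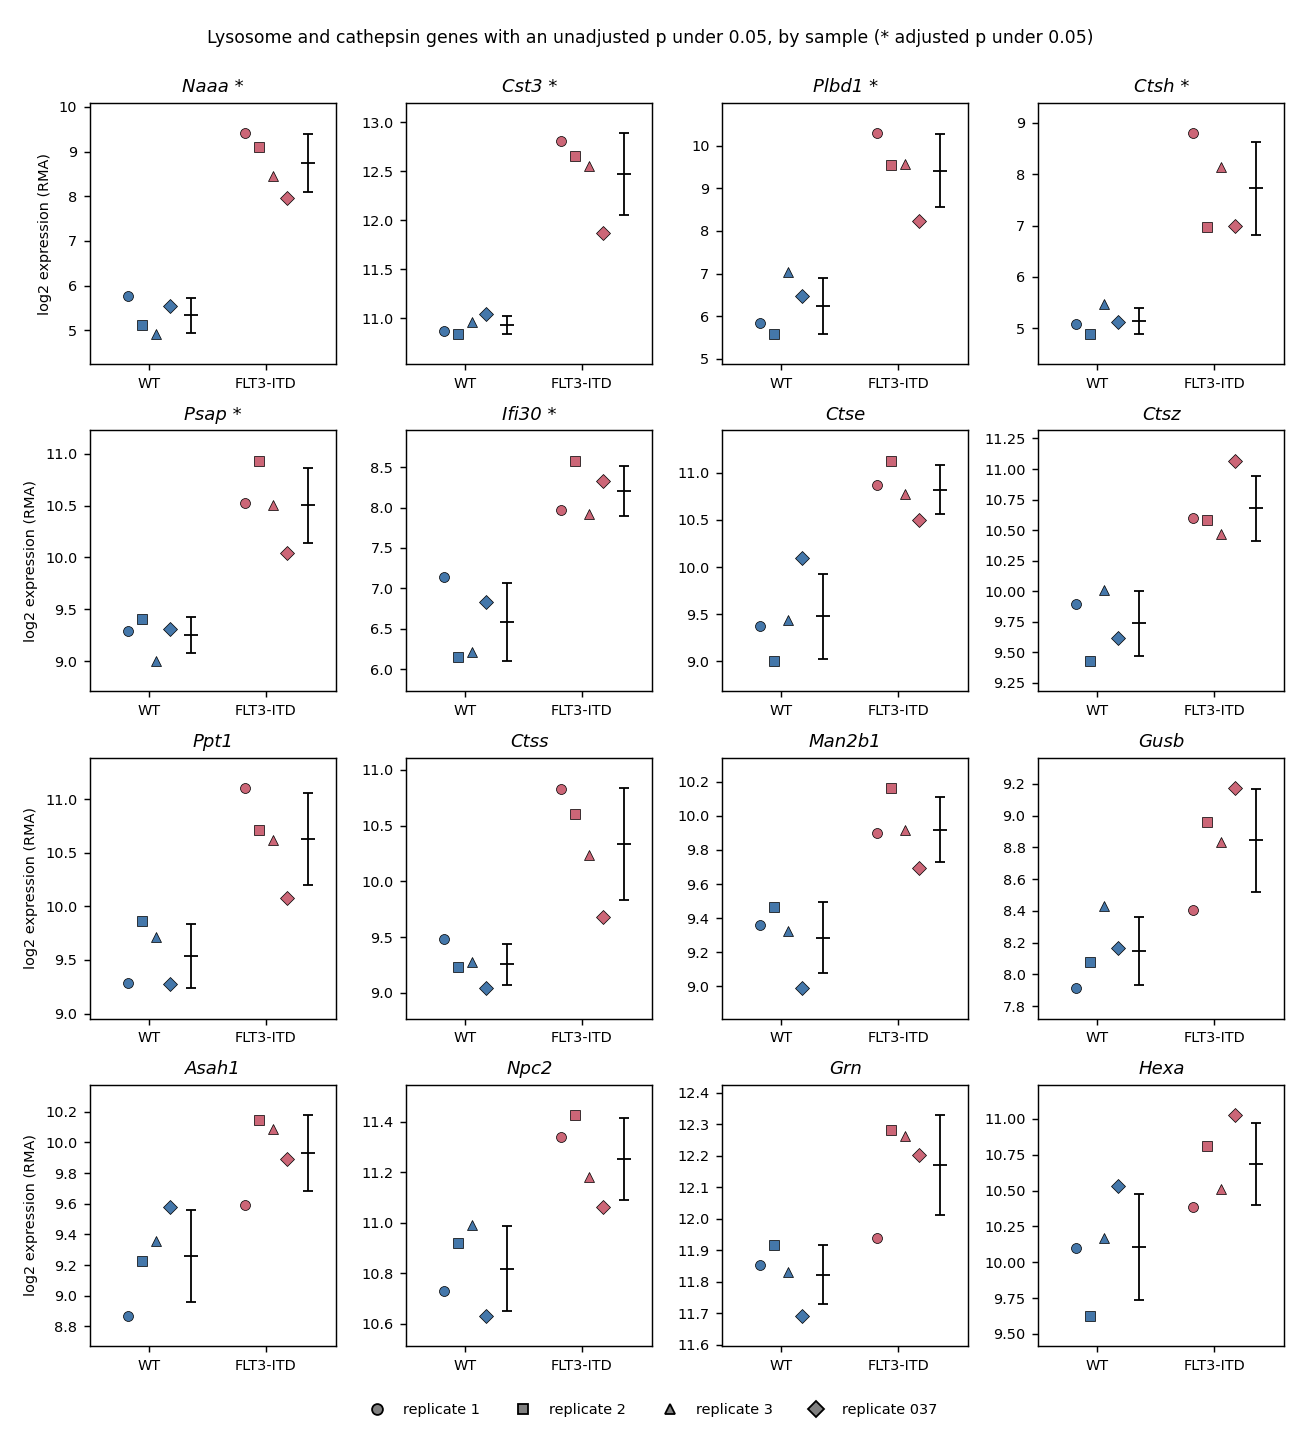
Log2 expression (y axis, own range in each panel) by sample for the 16 lysosome and cathepsin genes with an unadjusted p under 0.05; marker shapes are replicates, the bar is the group mean with SD (n = 4), and an asterisk marks an adjusted p under 0.05. The genotypes do not overlap in 14 panels, and in Gusb and Hexa they do.

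Both members that act on the work of proteases rose, where 0.427% of all tested genes did. The role held only these 2, on a list drawn up with earlier results known. Ifi30 encodes the thiol reductase GILT, which opens disulphide bonds of proteins taken up for antigen presentation. It read 7.15, 6.15, 6.21 and 6.83 in wild type and 7.97, 8.58, 7.92 and 8.33 in FLT3-ITD, without overlap. The difference was 1.62 ± 0.26 (limma adjusted p = 0.0330). It passed without wild type replicate 1 (0.0246) and missed in the other 7 leave-one-out fits, where the limma adjusted p lay between 0.0502 and 0.131. A probe set annotated to both Ifi30 and Pik3r2 lay below the median on all arrays and differed by −0.06 (exact permutation p = 0.571).

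Cst3 encodes cystatin C, a secreted inhibitor of cysteine cathepsins. It read 10.87, 10.84, 10.96 and 11.04 in wild type and 12.81, 12.66, 12.56 and 11.87 in FLT3-ITD. The wild type values lay close together, and FLT3-ITD replicate 037 was the lowest of its group but above them all. The difference was 1.54 ± 0.20 (limma adjusted p = 0.0122), or 2.92-fold. The call was lost when FLT3-ITD replicate 2 (0.0517), wild type replicate 2 (0.0591) or wild type replicate 3 (0.0583) was left out, all limma adjusted p. As a single value each of the 6 called members gave an exact two-sided permutation p of 0.0286, the smallest that 4 samples against 4 can give.

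None of the 7 tested glycosidases passed by limma, and 3 were higher at an unadjusted p under 0.05, where 5.74% of all tested genes were. Man2b1, an acid alpha-mannosidase, read 9.36, 9.47, 9.32 and 8.99 in wild type and 9.90, 10.16, 9.92 and 9.69 in FLT3-ITD. The groups did not overlap, and the difference was 0.64 ± 0.15 (limma adjusted p = 0.160). Its other probe set overlapped between groups and differed by 0.21 ± 0.33. Gusb, beta-glucuronidase, read 7.91, 8.08, 8.43 and 8.17 against 8.40, 8.96, 8.83 and 9.17. The groups overlapped at wild type replicate 3 and FLT3-ITD replicate 1; the difference was 0.70 ± 0.19 (limma adjusted p = 0.236), and its other probe set read −0.15. Hexa, the alpha subunit of beta-hexosaminidase, read 10.10, 9.63, 10.17 and 10.53 against 10.39, 10.81, 10.51 and 11.03, with overlap, and differed by 0.58 ± 0.22 (limma adjusted p = 0.445). The other 4 differed by −0.07 (Gaa, acid alpha-glucosidase) to 0.33 (Neu1, a sialidase), and their 95% intervals all held 0.

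The 7 tested membrane proteins were the role with the smallest differences, −0.12 to 0.05. Lamp1 and Lamp2 encode the most abundant glycoproteins of the lysosomal membrane. Lamp1 read 10.39, 10.22, 10.16 and 10.24 in wild type and 10.27, 10.35, 10.16 and 9.99 in FLT3-ITD, a difference of −0.06 with a 95% interval of −0.35 to 0.23. Lamp2 differed by −0.01 (−0.43 to 0.42) and Laptm5, a lysosomal protein of blood cells, by −0.03 (−0.27 to 0.21). Laptm4a, a relative of Laptm5, differed by 0.05 (−0.34 to 0.44). Mcoln1, the calcium channel TRPML1, is named for a value seen: 1 of its 2 other probe sets was higher without overlap, by 0.52, while the one used differed by 0.04. With Cln3 and Scarb2, the receptor that carries glucocerebrosidase to the lysosome, all 7 intervals lay within −0.64 to 0.67. A 2-fold change is a difference of 1, which none of these 7 intervals reached. They are intervals of the probe sets used and do not cover a gene's other probe sets. For Lamp2 the others differed by 0.04 ± 0.19, −0.33 ± 0.49 and 0.17 ± 0.40.

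The proton pump and the regulators showed no call either. Atp6v0d1, Atp6v1a and Atp6ap1, subunits of the pump or bound to it, differed by 0.08, 0.41 and 0.33. Their intervals ran from −0.70 to 1.51, and that of Atp6v1a held a 2-fold rise. Tfeb differed by −0.10 (−0.48 to 0.29). Grn, which encodes progranulin, read 11.85, 11.92, 11.83 and 11.69 in wild type and 11.94, 12.28, 12.26 and 12.20 in FLT3-ITD. Its groups did not overlap, and the difference was 0.35 ± 0.13 (limma adjusted p = 0.417). The other probe sets of Grn were higher by 0.31 and 0.32, with overlap.

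Members with more than 1 probe set numbered 25, with 46 probe sets besides those of highest mean. In a fit over all probe sets with 1 gene, 1 of the 32 that could be tested passed, where 0.297% of all tested probe sets were higher and 0.12% lower. This was a dim probe set of Npc2 at 5.14, 4.96, 5.87 and 4.53 in wild type and 6.76, 7.09, 6.43 and 7.17 in FLT3-ITD, without overlap, a difference of 1.74 ± 0.29 (limma adjusted p = 0.0471). It passed the filter through its FLT3-ITD arrays alone. For Naaa the other 2 probe sets were higher by 1.20 and 0.54, without overlap. The first did not pass (limma adjusted p = 0.0557). The second lay below the median on all arrays and was not tested. The size of the Naaa difference therefore depended on the probe set, and its direction did not.

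**Figure D3:**
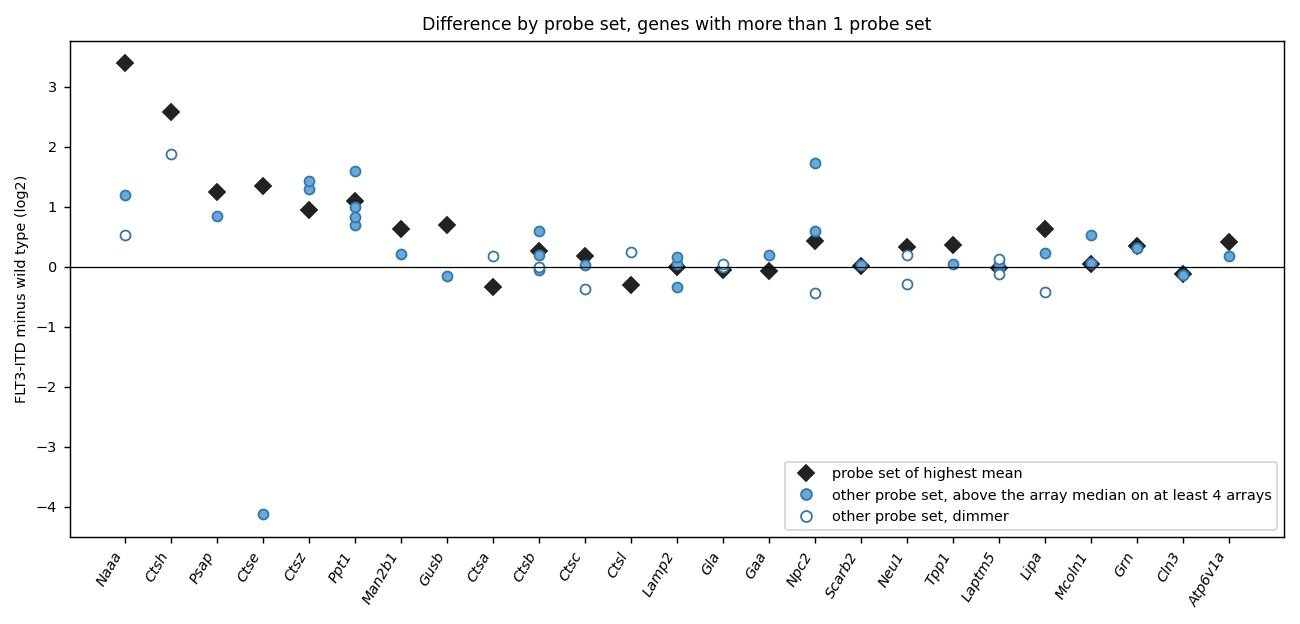
Difference between FLT3-ITD and wild type (y axis, log2) for each probe set of the 25 genes with more than 1 (x axis); diamonds are the probe sets used, filled circles others bright enough to test, open circles dimmer ones. Both probe sets of Ctse lie on opposite sides of 0, at 1.34 and −4.13, and the 5 of Ppt1 lie between 0.69 and 1.59.

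The FLT3-ITD samples differed among themselves. Replicate 037 was the lowest of its group in 9 of the 16 members with an unadjusted p under 0.05. It was so in 22.7% of all tested genes, and in 27.2% of all tested genes higher at that p. It also had the largest gap between the control probe sets for the 3′ and 5′ ends of Gapdh, which widens with degraded RNA: 2.99, where the other samples ran from 1.82 to 2.29. FLT3-ITD replicate 1 correlated least with the other arrays (0.948 to 0.960 over all probe sets). It was highest of its group in 6 of the 16 (37.5%), and replicate 2 in 7 (43.8%). Among all tested genes higher at an unadjusted p under 0.05 these shares were 41.6% and 18.6%. The part of these features in the results was not tested. With replicate 037 left out of FLT3-ITD, Naaa, Plbd1, Ctsh, Psap, Ctss and Cst3 passed, and with replicate 1 left out Naaa, Plbd1, Ctsh and Cst3.

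Set against the E-box matches, 11 tested members had a match in a promoter window and 23 had windows without one. Of the 11, Ifi30 passed, and 4 had a positive difference; their median was −0.06. Of the 23, 4 passed (Naaa, Plbd1, Psap and Cst3) and 20 had a positive difference; their median was 0.43. Lamp1, with 4 E-boxes in its window, and Ctsd and Mcoln1, with 2 each, differed by −0.06, −0.20 and 0.04. The list was drawn up with results known, so this split is a description without a test.

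**Figure D4:**
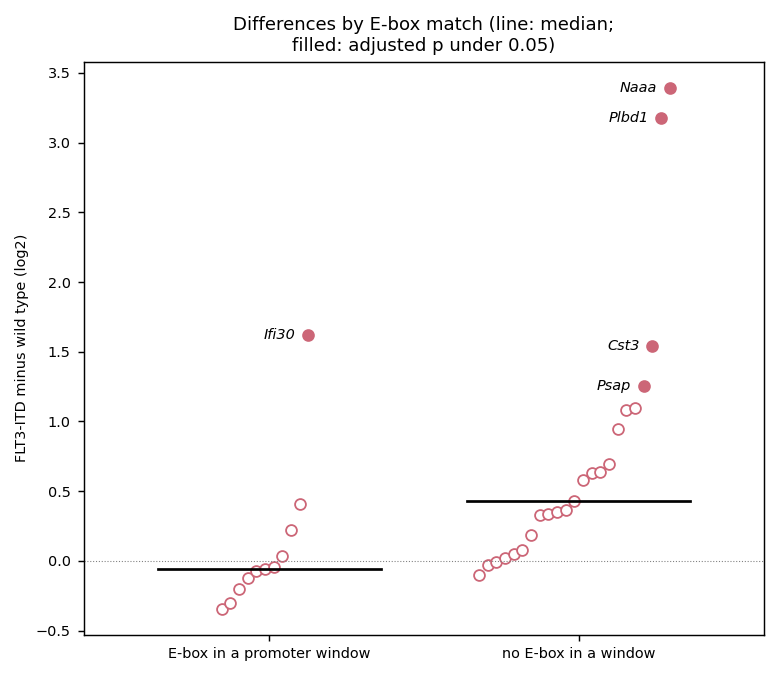
Difference between FLT3-ITD and wild type (y axis, log2) for the 34 tested members with a promoter window, split by whether the window holds an E-box; lines are medians, −0.06 with a match and 0.43 without, and filled circles passed the adjusted threshold. Of the 5 named genes past the test, Ifi30 lies on the side with a match.

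Other genes of the lysosome, its regulators and enzyme sorting, in 6 lists of 87 genes that are not members, gave 71 tested genes. None passed by limma. At an unadjusted p under 0.05, 6 were higher and 1 lower, where 5.74% of all tested genes were higher and 3.84% lower. The median difference was 0.14. The smallest p in each list belonged to Napsa, an aspartic protease, at 0.78 ± 0.19 (limma adjusted p = 0.164), Arsb, arylsulfatase B, at 0.77 ± 0.24 (0.315), Sgpl1, listed with the lipid enzymes although its product, sphingosine-1-phosphate lyase, sits in the endoplasmic reticulum, at 0.54 ± 0.29 (0.614), the nucleoside transporter gene Slc29a3 at −0.28 ± 0.14 (0.602), the pump subunit gene Atp6v1d at 0.37 ± 0.13 (0.424) and Lamtor5 at −0.44 ± 0.18 (0.482). Napsa read 7.36, 7.18, 7.19 and 7.53 in wild type and 8.57, 7.99, 8.08 and 7.71 in FLT3-ITD, without overlap. The 13 other pump subunits tested had 10 positive differences, from −0.22 to 0.50. The 4 tested cystatins and serpins other than Cst3 differed by −0.07 to 0.36. Among the granule proteases, cathepsin G (Ctsg), a serine protease of the primary granules and not a lysosomal cathepsin, rose by 1.74 ± 0.20 (limma adjusted p = 0.00734).

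MHC class II genes and part of the dendritic cell markers moved in the same samples. In bulk RNA, more cells of a type and more RNA per cell cannot be told apart. The mean level over 7 MHC class II genes was 7.46 to 7.62 in wild type and 9.38 to 10.65 in FLT3-ITD, with 4 of 7 risen. Over 14 dendritic cell markers it was 6.16 to 6.35 and 6.99 to 7.73; of 9 tested, 3 rose (Id2, Irf8, Tlr3), Id2 and Tlr3 having passed the filter through their FLT3-ITD arrays alone, 1 fell (Flt3), and Cd209a and Ccr7 lay below the median on all 8 arrays. Over 14 monocyte and macrophage markers it was 5.82 to 6.13 and 6.02 to 6.32, with 1 of 5 tested risen (Ccr2). Adgre1, Cx3cr1, Mrc1, Cd14 and Ms4a7 lay below the median on all 8 arrays. B cell markers overlapped between genotypes (5.42 to 5.64 and 5.34 to 5.59; 0 of 4 tested passed by limma), with Cd79a, Ms4a1, Cd22, Ebf1 and Blnk below the median on all 8 arrays. Mean levels of neutrophil markers overlapped too (6.58 to 7.89 and 5.49 to 7.42), and 0 of 6 tested passed by limma. All 6 had a negative difference, from −2.39 to −0.77 with a median of −1.59. Of them, 3 were lower at an unadjusted p under 0.05. Erythroid markers were lower (7.18 to 7.42 and 6.17 to 6.71), with 2 of 4 fallen (Hbb-b2 and Slc4a1). Of these, Slc4a1 passed the filter through its wild type arrays alone. Mast cell markers (0 of 4 tested passed by limma) and T and NK cell markers (0 of 1) overlapped. Flt3 itself fell by 1.17 ± 0.20 (limma adjusted p = 0.0406), a call that 1 of 8 leave-one-out fits kept. The gate gene Cd48 rose by 1.06 ± 0.13 (limma adjusted p = 0.00740). The part of these cell types in the members' differences was not tested.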

How the data were processed

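As deposited, each probe set has a log2 expression value made with RMA (background correction, normalization of the arrays to one distribution, summary of probes) per the submitters' processing notes; its version was not given in the sources used here. Per the labels' protocols, RNA was extracted with Trizol and amplified by the NuGEN WT-Ovation Pico system. Scanner signals were not analysed here, and the number of arrays limits the precision. RMA folds at low signal understate the change.

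The table held 45101 probe sets, 64 of them controls. The 2016 platform annotation gave 1 gene to 34945, several to 932 and none to 9160. Symbols were updated through Entrez IDs for 34741. The members and lists were chosen with earlier results of these data known. FLT3-ITD was compared with wild type by limma 3.58.1 in R 4.3.3 with no covariate and equal weights; differences are FLT3-ITD minus wild type, with SE or 95% intervals from the fit. The procedure was tested on simulated data. Members past an unadjusted p of 0.05 or without overlap are given by sample with at most 4 others a role, by level; of other lists, up to 3 genes past the test or the one of smallest p. Alternatives changed the replicate numbers, the tag 037, probe set choice, filter, normalization, variance model, array weights and samples. Figures were drawn with matplotlib 3.10.9.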

Additional observations from a re-analysis of the deposited data

Results flagged for a closer look

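In 78 groups of 4 values of the tested members, 2 had one sample well apart from its group. About 1 group in 20 would show this by chance. Wild type replicate 037 was lowest for Ctsb at 8.72, with the others at 9.40 to 9.47. FLT3-ITD replicate 1 was highest for Lamp2 at 10.48, with the others at 9.82 to 9.92.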

How the results depend on the processing

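Of 301 values of 16 members over 19 alternatives, 251 kept their direction and side of the threshold, 36 lost the call, 11 gained it and 3 changed sign. The sign changes were Ctse as the mean over probe sets (−1.39) and as the probe set of largest variance (−4.13), and Gusb in the latter (−0.15), where Prcp, no member and named after its values were seen, also turned (−0.22). That choice also made Ctse the 1 member lower. Members past the test numbered 1 to 6 without single samples and 3 with the filter above the median on all 8 arrays, which tests fewer genes (35 members; Naaa, Plbd1, Ctsh and Neu1 are not among them). Over all genes 46 were higher and 19 lower. Without single samples these were 28 to 45 and 2 to 14. With the stricter filter they were 18 and 7, with array weights 30 were lower, and with both 037 samples left out, chosen after seeing the data, 26 and 5. That setting left 4 members higher (Naaa, Plbd1, Ctse, Cst3), without Ctsh, Psap and Ifi30; averaging replicate 1 with 037 left 8, the 6 plus Ctse and Ctss. Calls added by probe set choice were Ctsz and Ppt1 as means, where Psap lost its call, and Npc2 by largest variance. Median centring, the other variance model and array weights each added Ctse as higher. As the mean over probe sets the median member difference was 0.21, against 0.33, and 0.27 to 0.40 without single samples. Deviations of same-numbered samples correlated at 0.03 to 0.11, and the main fit did not take the numbers to pair samples. For FLT3-ITD replicates 1, 3 and 037 the wild type sample of the same number still correlated best. For FLT3-ITD replicate 2 it was wild type replicate 3. Whether the numbers pair samples was not tested. With a replicate block 19 genes were higher and 3 lower, and 1 member, Naaa, passed. Signal over background was not analysed here, and the dim wild type values of Naaa and Ctsh limit their folds.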
